A study of Arabidopsis thaliana with 12 samples.

Results

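Galactinol and raffinose metabolism was followed through 8 Arabidopsis thaliana genes, out of 33201 rows in each deposited table. They are the galactinol synthase genes GOLS1 to GOLS4, the raffinose synthase gene AT5G40390 (RS5, listed as SIP1 in RefSeq), the stachyose synthase gene AT4G01970 (STS), and the related genes DIN10 and SIP2. The loci were chosen by annotated function, with the deposited values and calls of all 4 comparisons already known. Everything below therefore describes these genes, and the number of them called is no evidence about the pathway as a whole. RNA was sequenced from whole seedlings at 5 days in 4 groups of 3 samples: nup1-1 on MS medium with abscisic acid (ABA), nup1-1 on MS medium alone, wild-type Col-0 with ABA, and Col-0 on MS medium alone. NUP1 is a nuclear pore protein. The labels give neither the ABA dose nor the kind of lesion in nup1-1, and are silent on whether the samples were sown separately, so the deposited p-values may measure technical spread alone. Each of the authors' 4 deposited tables compares a pair of groups and holds 1 FPKM value (fragments per kilobase of transcript, scaled to library size) per group and gene.

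Galactinol synthase joins UDP-galactose to myo-inositol to form galactinol. Raffinose synthase then moves the galactose of galactinol onto sucrose, and stachyose synthase adds a further galactose to raffinose. These sugars build up in maturing seeds and in leaves under drought, heat or cold, and are broken down after germination. In Arabidopsis GOLS1 and GOLS2 are known as drought, salt and heat genes and GOLS3 as a cold gene. ABA is the hormone that holds back germination and carries much of the drought response.

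The bases just before the gene start are shown for GOLS2, STS, DIN10 and SIP2. These are the members whose ABA response differed between nup1-1 and Col-0 and whose standard errors are printed. Each run holds the 250 bases before the RefSeq gene start on TAIR10.1, 5′ to 3′ on the gene's strand. Capitals mark the cores of the ABA-responsive element (ACGTG), the cold and dehydration element (CCGAC) and the heat shock element (GAANNTTC), and the seed RY motif (CATGCA), on either strand.
GOLS2 (chr1:21207287-21207536, plus strand): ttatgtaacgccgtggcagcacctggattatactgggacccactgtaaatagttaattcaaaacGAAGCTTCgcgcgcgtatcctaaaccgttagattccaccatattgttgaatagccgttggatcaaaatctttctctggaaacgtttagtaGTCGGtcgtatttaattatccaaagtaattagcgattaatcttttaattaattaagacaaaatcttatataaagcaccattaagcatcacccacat
STS (chr4:857402-857651, minus strand): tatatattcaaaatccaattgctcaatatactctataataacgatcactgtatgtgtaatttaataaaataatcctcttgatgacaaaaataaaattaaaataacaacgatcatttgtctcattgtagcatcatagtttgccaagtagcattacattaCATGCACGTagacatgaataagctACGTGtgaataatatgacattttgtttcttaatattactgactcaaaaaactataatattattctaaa
DIN10 (chr5:6833314-6833563, plus strand): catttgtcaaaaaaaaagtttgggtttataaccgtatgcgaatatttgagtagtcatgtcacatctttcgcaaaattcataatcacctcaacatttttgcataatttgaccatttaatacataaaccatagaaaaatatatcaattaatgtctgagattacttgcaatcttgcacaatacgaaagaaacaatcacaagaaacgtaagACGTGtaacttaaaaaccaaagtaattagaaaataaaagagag
SIP2 (chr3:21293172-21293421, minus strand): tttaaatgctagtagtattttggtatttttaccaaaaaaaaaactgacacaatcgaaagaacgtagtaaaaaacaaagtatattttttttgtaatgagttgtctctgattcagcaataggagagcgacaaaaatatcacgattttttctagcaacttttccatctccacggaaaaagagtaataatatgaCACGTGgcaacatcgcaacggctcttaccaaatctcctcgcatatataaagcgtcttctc

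ACGTG was found in 5 of the 8 member windows, those of GOLS1, GOLS3, STS, DIN10 and SIP2, and in 22.9% of 27443 windows of protein-coding genes. In GOLS1, GOLS3 and SIP2 the match is a G-box, CACGTG, a palindrome that holds ACGTG on both strands; 6.49% of all windows have one. The longer form ACGTGNC, which contains ACGTG, was found in GOLS3 and SIP2 and in 8.57% of all windows. The GOLS2 window had no ACGTG. It had 1 CCGAC match, as did RS5, while GOLS3 had 2; 11.97% of all windows have this core. GAANNTTC was found in GOLS1 and GOLS2 and in 9.55% of all windows. CATGCA was found in STS, where it overlaps an ACGTG core on the other strand, and in 8.43% of all windows. The GOLS4 window had none of these letters. A match is only a run of letters in this window, and binding of any factor there was not measured.

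**Figure D1:**
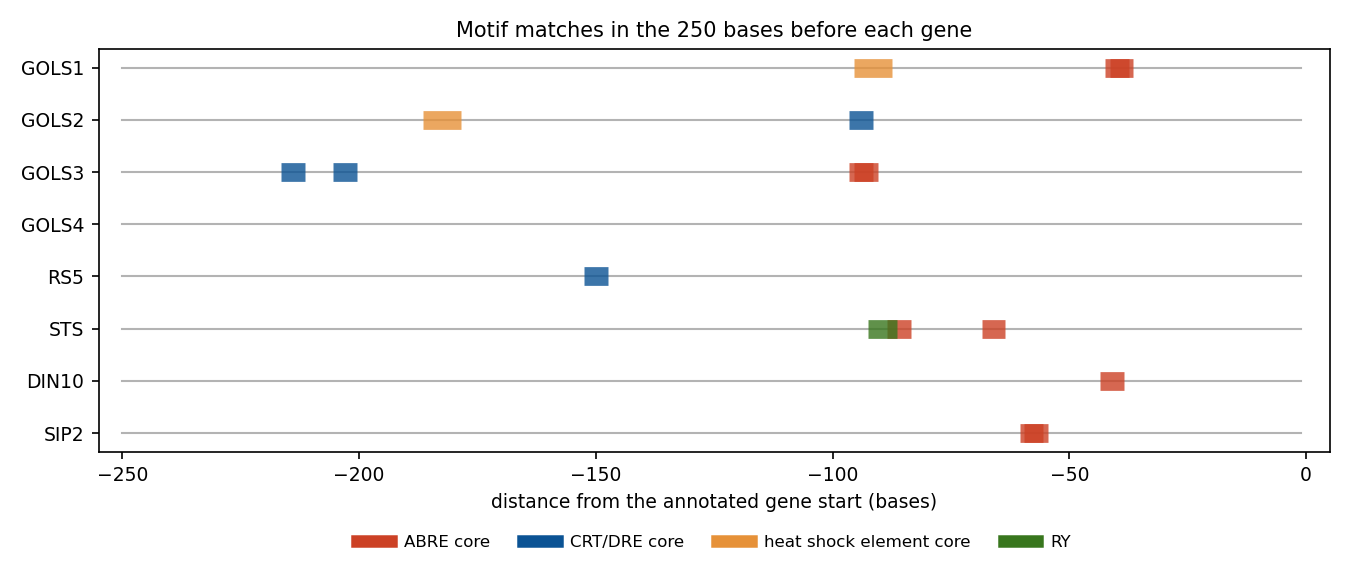
Motif matches in the 250 bases before each of the 8 genes. The x axis is the distance in bases from the gene start annotated in RefSeq, each line is a gene, and coloured blocks are matches on either strand. ABRE cores lie within the last 100 bases in GOLS1, GOLS3, STS, DIN10 and SIP2.

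In the authors' deposited tables NUP1 was still read in the mutant, at 7.47 FPKM in nup1-1 and 13.8 FPKM in Col-0 on ABA (q = 0.000272). Without ABA the authors' deposited table has it at 9.23 FPKM in nup1-1 and 12.8 FPKM in Col-0, and it was not called (q = 0.243). A value per gene does not show which part of the transcript was read, so it does not check the mutant label. Of 7 reference genes, ACT2 alone was called, lower in nup1-1 on ABA than in untreated nup1-1 and than in Col-0 on ABA. Depth per library is unknown. Of 5 light-harvesting and photosystem markers of green tissue, all 5 fell on ABA in either genotype, and their summed level in the authors' deposited tables was 4327 FPKM with and 21418 FPKM without ABA in nup1-1, against 12973 and 27574.5 FPKM in Col-0. Of 15 seed storage, oil body and late embryogenesis markers, 10 rose in nup1-1 and 12 in Col-0 on ABA, and none fell (at an unadjusted p under 0.05, none was lower in nup1-1 and 1 in Col-0). Their summed level in the authors' deposited tables was 7177 FPKM with and 13.8 FPKM without ABA in nup1-1, against 4904 and 34.1 FPKM in Col-0. Of 3 root markers, 2 rose on ABA in nup1-1 and none in Col-0 (none at an unadjusted p under 0.05), with summed levels of 3218 FPKM with and 1768 FPKM without ABA in nup1-1 in the authors' deposited table, against 2147 and 1890 FPKM in Col-0. Between genotypes on ABA, 6 seed markers were higher and 5 lower in nup1-1, all 5 green markers were lower, and 2 root markers were higher and none lower (none by the unadjusted p). Without ABA, 3 of 14 tested seed markers were lower in nup1-1 and none higher (11 and none by the unadjusted p), and no green or root marker was called (none by the unadjusted p). No marker of the 3 lists was listed at 0, and the levels of each genotype here come from a table scaled on its own. In either genotype the seed list mostly rose with ABA and the green list fell. GOLS2 and STS rose in both genotypes, and DIN10 and SIP2 fell in nup1-1. The part of these lists in the results below was not tested. In whole seedlings fewer cells of a type and less RNA per cell cannot be told apart.

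The 8 genes differed widely in level. FPKM is a level per length, so genes can be set beside each other within a group. In untreated Col-0 the authors' deposited ABA table lists DIN10 at 185 FPKM, SIP2 at 55.0, RS5 at 19.1, GOLS1 at 5.83, STS at 0.957, GOLS3 at 0.385, GOLS2 at 0.367 and GOLS4 at 0.106 FPKM. DIN10 was the highest member in all 4 groups. The tables' scales differ: the same Col-0 ABA group reads lower by a median of -0.20 on the log2 scale in its ABA table than in the genotype table, and untreated nup1-1 reads higher by 0.20. Folds and tests below therefore stay within a table.

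**Figure D2:**
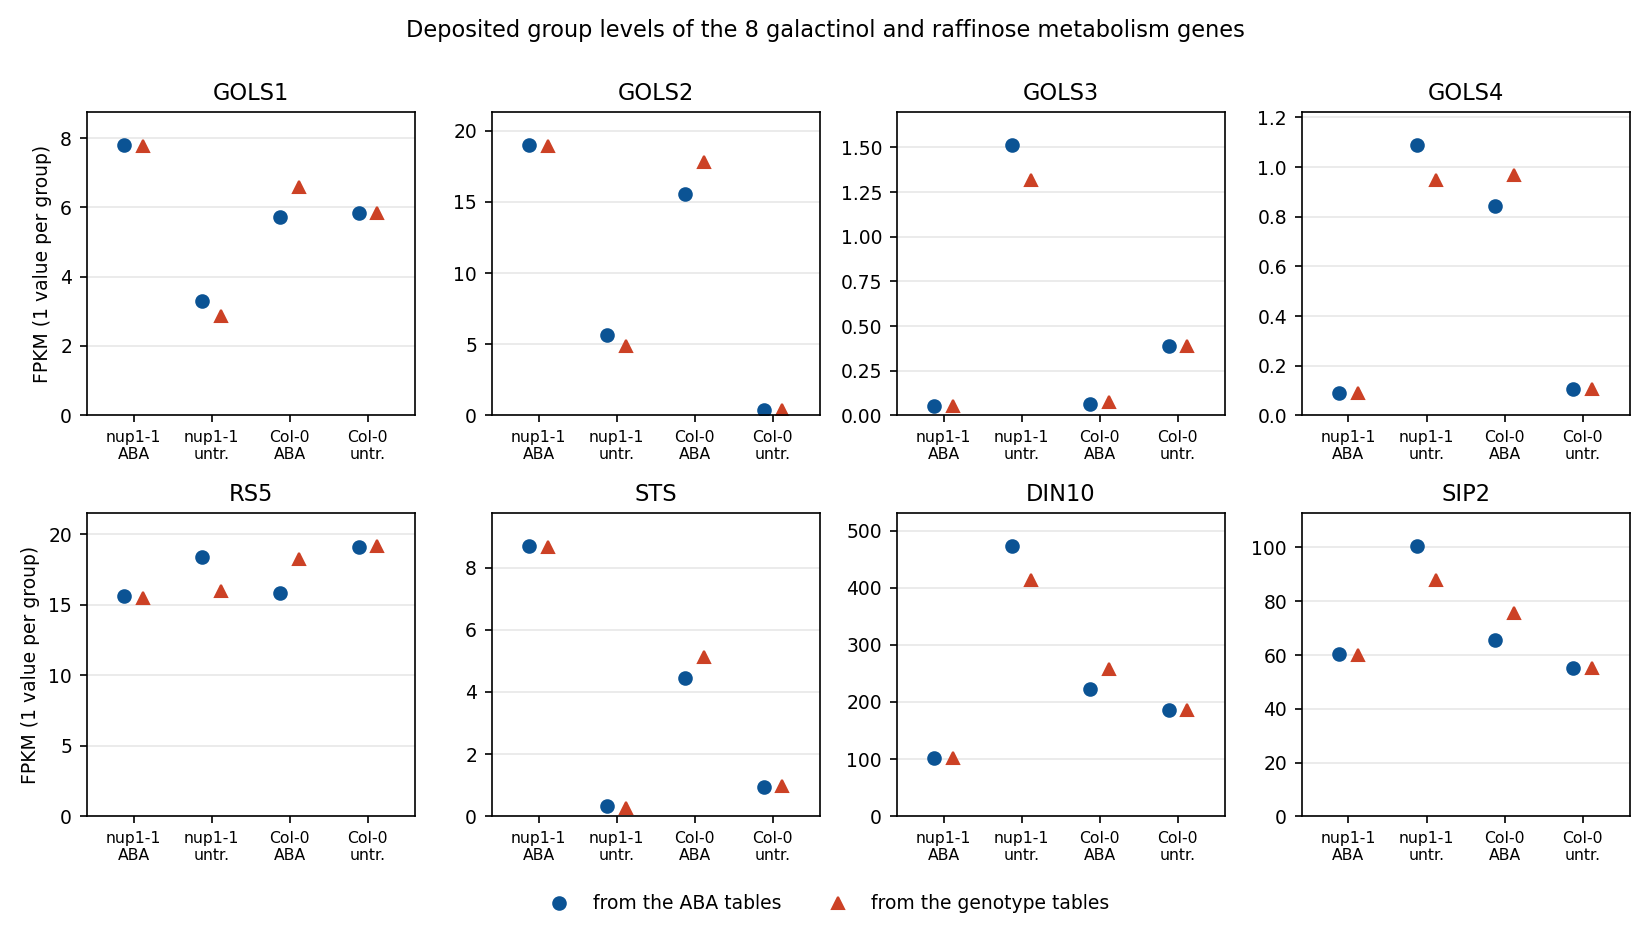
Deposited FPKM of the 8 genes by group, on linear axes that start at 0, with 1 value per group and table and no error bar. Circles come from the tables that compare ABA with no ABA, triangles from those that compare genotypes. GOLS2 and STS are higher with ABA in both genotypes, while DIN10 and SIP2 are highest in untreated nup1-1.

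GOLS2 (AT1G56600, chromosome 1, 21207537 to 21209596 on TAIR10), which encodes a galactinol synthase, rose with ABA in nup1-1 as well as in Col-0. The authors' deposited table lists it at 19.0 FPKM with ABA and 5.65 FPKM without in nup1-1. In Col-0 it lists 15.5 FPKM with ABA and 0.367 FPKM without. Both ABA groups were thus high and untreated Col-0 was nearly without the transcript. The log2 fold changes were 1.75 ± 0.21 in nup1-1 (q = 0.000208 in the authors' deposited table) and 5.41 ± 0.41 in Col-0 (q = 0.000716), where the error is a standard error reconstructed from the deposited statistic. Without ABA the authors' deposited table has 4.90 FPKM in nup1-1 and 0.369 FPKM in Col-0, a 13.3-fold difference (q = 0.00198). On ABA it has 18.9 FPKM in nup1-1 and 17.8 FPKM in Col-0, a log2 difference of 0.08 ± 0.16 that was not called (q = 0.715).

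GOLS1 (AT2G47180, chromosome 2), another galactinol synthase gene, was not called in any comparison. The authors' deposited table lists 7.81 FPKM with ABA and 3.30 FPKM without in nup1-1, a log2 fold change of 1.24 ± 1.09 (q = 0.486). It lists 5.73 FPKM with ABA and 5.83 FPKM without in Col-0 (q = 0.935). On ABA the authors' deposited table has 7.76 FPKM in nup1-1 and 6.60 FPKM in Col-0, and without ABA 2.87 FPKM in nup1-1 and 5.84 FPKM in Col-0. The log2 genotype differences were 0.23 ± 0.85 on ABA and -1.03 ± 1.58 without ABA, so changes of a few fold in GOLS1 could not be seen here. In the tables this gene shares the interval 19366623 to 19370441 with ARF1A1C, an ADP-ribosylation factor gene on the opposite strand, and the RefSeq models overlap by 43 bases. The authors' deposited tables list ARF1A1C at 258 FPKM with and 282 FPKM without ABA in nup1-1, and at 247 and 233 FPKM in Col-0. No source used here says whether strand was used in counting, so reads in the overlap cannot be told apart.

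GOLS3 (AT1G09350, chromosome 1, 3019819 to 3021441), the cold-linked galactinol synthase gene, was highest in untreated nup1-1. Without ABA the authors' deposited table lists 1.32 FPKM in nup1-1 and 0.387 FPKM in Col-0, a log2 difference of 1.77 ± 0.48 (q = 0.0383). With ABA it was close to 0 in both genotypes. The authors' deposited table lists 0.0515 FPKM with and 1.52 FPKM without ABA in nup1-1, which was not called (q = 0.0938). In Col-0 it lists 0.0623 FPKM with and 0.385 FPKM without ABA, and this pair was not tested by the authors.

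GOLS4 (AT1G60470, chromosome 1), a further galactinol synthase gene, was listed near 1 FPKM in untreated nup1-1 and in Col-0 on ABA, and near 0.1 FPKM in the other groups. The authors' deposited tables give 0.0898 FPKM with and 1.09 FPKM without ABA in nup1-1 (q = 0.259), and 0.844 FPKM with and 0.106 FPKM without ABA in Col-0 (q = 0.478). The genotype pairs were not called either. In the authors' deposited tables they are 0.0891 FPKM in nup1-1 and 0.969 FPKM in Col-0 on ABA (q = 0.159), and 0.946 FPKM in nup1-1 and 0.106 FPKM in Col-0 without ABA (q = 0.497). At these levels the deposited p-values were larger than the deposited statistics give, so no standard error is printed for GOLS4. The gene shares its interval, 22275484 to 22280586, with the opposite-strand gene AT1G60460, and the RefSeq models overlap by 33 bases. GOLS1 to GOLS4 are 68.3% to 80.6% identical over their coding sequences on TAIR10.1, GOLS2 and GOLS3 being the closest pair, and no pair shares an identical run longer than 26 bases.

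RS5 (AT5G40390, chromosome 5, 16161515 to 16165357), the raffinose synthase gene, stayed within a narrow range. The authors' deposited table lists 15.6 FPKM with and 18.4 FPKM without ABA in nup1-1, and that for Col-0 lists 15.9 and 19.1 FPKM. Between genotypes the authors' deposited tables have 15.5 FPKM in nup1-1 and 18.3 FPKM in Col-0 on ABA, and 16.0 FPKM in nup1-1 and 19.2 FPKM in Col-0 without ABA. The log2 differences were -0.24 ± 0.15 for ABA in nup1-1, -0.27 ± 0.22 for ABA in Col-0, -0.24 ± 0.14 for genotype on ABA and -0.26 ± 0.22 for genotype without ABA. All 4 lie below 0 and none was called, with q-values from 0.188 to 0.605 in the authors' deposited tables.

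STS (AT4G01970, chromosome 4, 853922 to 857008), the stachyose synthase gene, rose on ABA in both genotypes and was lower in untreated nup1-1. The authors' deposited table lists 8.71 FPKM with and 0.315 FPKM without ABA in nup1-1, a 27.6-fold difference (q = 0.000208). It lists 4.45 FPKM with and 0.957 FPKM without ABA in Col-0, a 4.65-fold difference (q = 0.000716). On the log2 scale these rises were 4.79 ± 0.33 and 2.22 ± 0.26. On ABA the authors' deposited table has 8.65 FPKM in nup1-1 and 5.12 FPKM in Col-0, a log2 difference of 0.76 ± 0.16 (q = 0.000272). Without ABA it has 0.275 FPKM in nup1-1 and 0.960 FPKM in Col-0, a log2 difference of -1.80 ± 0.41 (q = 0.00349 in the authors' deposited table). Its genotype difference was thus called with either sign, higher on ABA and lower without it. Untreated levels below 1 FPKM stand behind its folds.

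DIN10 (AT5G20250, chromosome 5, 6833659 to 6836782), known as a gene induced by darkness and sugar starvation, fell on ABA in nup1-1. The authors' deposited table lists 102 FPKM with and 474 FPKM without ABA in nup1-1, a log2 fold change of -2.21 ± 0.23 (q = 0.000208). In Col-0 it lists 223 FPKM with and 185 FPKM without ABA, a difference of 0.27 ± 0.27 that was not called (q = 0.657). Among the groups, untreated nup1-1 was listed highest and nup1-1 on ABA lowest in either set of tables, a span wider than the scale difference between tables. Without ABA the authors' deposited table has 413 FPKM in nup1-1 and 186 FPKM in Col-0, 2.22-fold more (q = 0.0175). On ABA it has 102 FPKM in nup1-1 and 258 FPKM in Col-0, a log2 difference of -1.34 ± 0.18 (q = 0.000272). As with STS, the genotype difference was called with either sign, but DIN10 was lower on ABA and higher without it.

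SIP2 (AT3G57520, chromosome 3, 21288765 to 21293158) encodes an alkaline alpha-galactosidase known to act on raffinose. Its differences had the same signs as those of DIN10 in all 4 comparisons and were smaller in size, which is a description of 2 genes chosen with these values known. The authors' deposited table lists 60.2 FPKM with and 101 FPKM without ABA in nup1-1, a log2 fold change of -0.74 ± 0.17 (q = 0.000208). In Col-0 it lists 65.7 FPKM with and 55.0 FPKM without ABA, a difference of 0.26 ± 0.23 (q = 0.578). Between genotypes the authors' deposited tables have 59.8 FPKM in nup1-1 and 75.7 FPKM in Col-0 on ABA, and 87.8 FPKM in nup1-1 and 55.2 FPKM in Col-0 without ABA. The log2 genotype difference was 0.67 ± 0.25 without ABA (q = 0.0919 in the authors' deposited table) and -0.34 ± 0.15 on ABA (q = 0.0575), and neither was called. With the scale set on the reference genes both differences would pass, at q = 0.0122 without ABA and q = 0.0491 on ABA. With the scale set on the median of all genes neither would, at q = 0.0641 without ABA and q = 0.0685 on ABA. All 4 of these q-values rest on p-values recomputed from the reconstructed errors, so they differ from the deposited ones in more than scale.

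**Figure D3:**
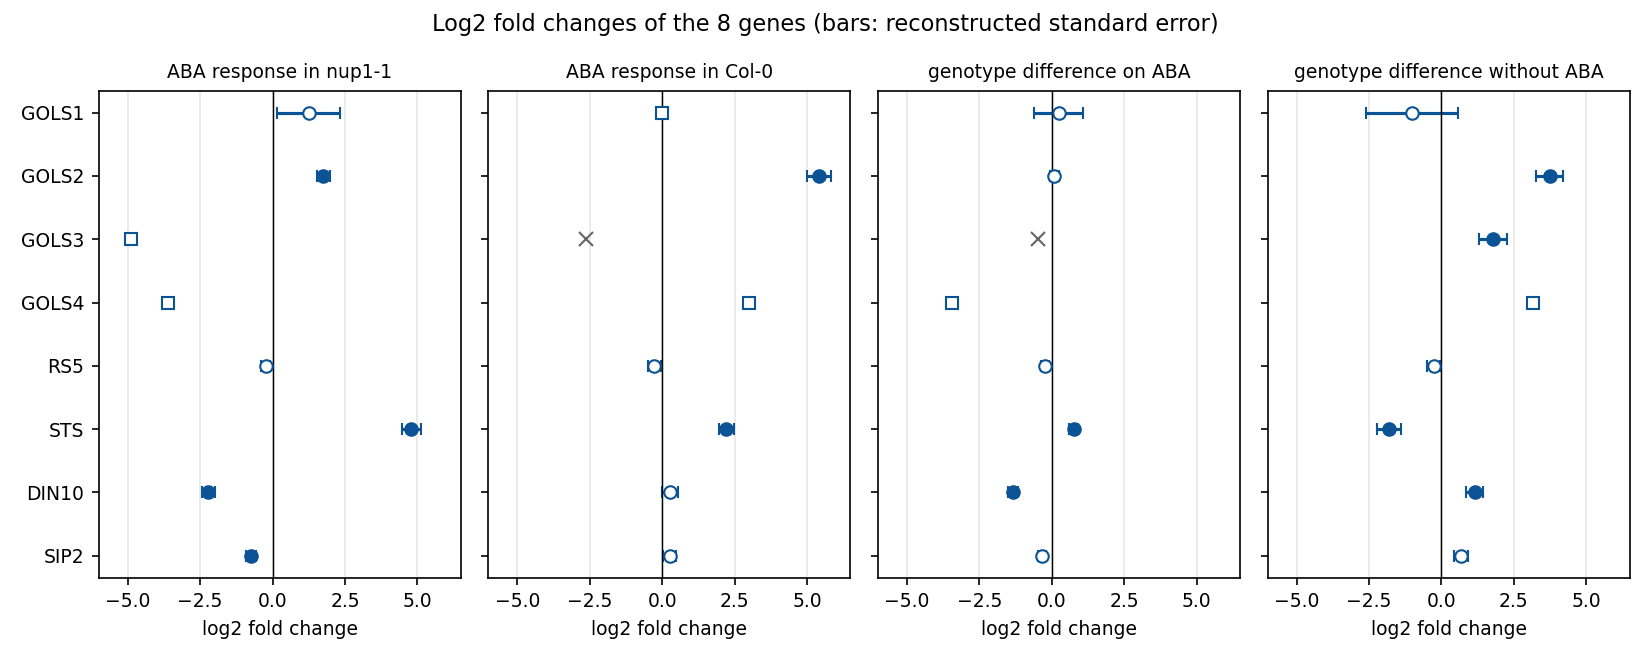
Log2 fold changes of the 8 genes, the x axis, in the 4 comparisons, with positive values higher in the first-named condition (ABA over no ABA, nup1-1 over Col-0). Bars are reconstructed standard errors; filled symbols have a deposited q under 0.05, open symbols were tested and not called, squares have no usable standard error, and crosses were not tested. GOLS2 and STS are filled on the right for ABA in both genotypes, and DIN10 lies left of 0 for ABA in nup1-1 and for genotype on ABA and right of 0 for genotype without ABA.

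Counted over the members at a deposited q under 0.05, 2 rose and 2 fell among 8 tested for ABA in nup1-1, where 46.6% of all 20459 tested genes were called, 21.2% higher and 25.3% lower. For ABA in Col-0, 2 of 7 tested members rose and none fell (none at an unadjusted p under 0.05), where 15.6% of 20329 genes were called, 7.83% higher and 7.79% lower. For genotype on ABA, 1 was higher and 1 lower of 7, where 38.7% of 20327 genes were called, 15.4% higher and 23.3% lower. For genotype without ABA, 3 were higher and 1 lower of 8, where 6.6% of 20004 genes were called, 2.68% higher and 3.92% lower. The median log2 fold changes of the tested members were -0.49, 0.27, -0.24 and 0.91 in these comparisons, beside 0.00, -0.02, -0.01 and -0.02 over all genes tested. The members were listed with these calls known, so nothing about the list is read from the counts.

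Whether the ABA response itself differed between nup1-1 and Col-0 was computed per gene as the difference of both log2 ABA responses, with a 2-sided Wald test on the reconstructed errors. Its q was adjusted by the Benjamini-Hochberg method over the 19487 genes that both tables tested and that reached 1 FPKM in a group. Of these, 16.3% had a q under 0.05; the nup1-1 response was above that of Col-0 for 4.67% and under it for 11.6%. Among 7 members tested, the signed difference was called above 0 for 1 and below 0 for 4. GOLS2 rose in both genotypes and rose less on the log2 scale in nup1-1, with a difference of -3.65 ± 0.46 (q = 2.6e-13). Its low level in untreated Col-0, 0.367 FPKM, stands behind this difference. For DIN10 and SIP2, which fell in nup1-1 and were not called in Col-0, the difference was -2.48 ± 0.35 (q = 1.2e-10) for DIN10 and -0.999 ± 0.29 (q = 0.00526) for SIP2. STS rose in both and rose more in nup1-1, by 2.57 ± 0.42 (q = 3.8e-08). For GOLS2 the untreated genotype difference of 3.73 ± 0.47 and the difference of 0.08 ± 0.16 on ABA together make up this value, so it lies almost wholly in the untreated seedlings. For STS the untreated difference was also the larger one in size, -1.80 ± 0.41 beside 0.76 ± 0.16 on ABA, while for DIN10 both were of similar size, -1.34 ± 0.18 with and 1.15 ± 0.29 without ABA. RS5 differed by 0.03 ± 0.27 and GOLS1 had a q of 0.715, and neither was called. The GOLS4 difference of -6.59 had a q of 0.00436, but with errors taken from the deposited p-values it had a q of 0.249. GOLS3 was not tested. With errors from the deposited p-values, GOLS2 and STS also lost their calls (q = 0.0932 and 0.229). These p-values end at 5e-05, so the errors of genes at that limit can be too large. Which of both errors holds for GOLS2 and STS was not tested.

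**Figure D4:**
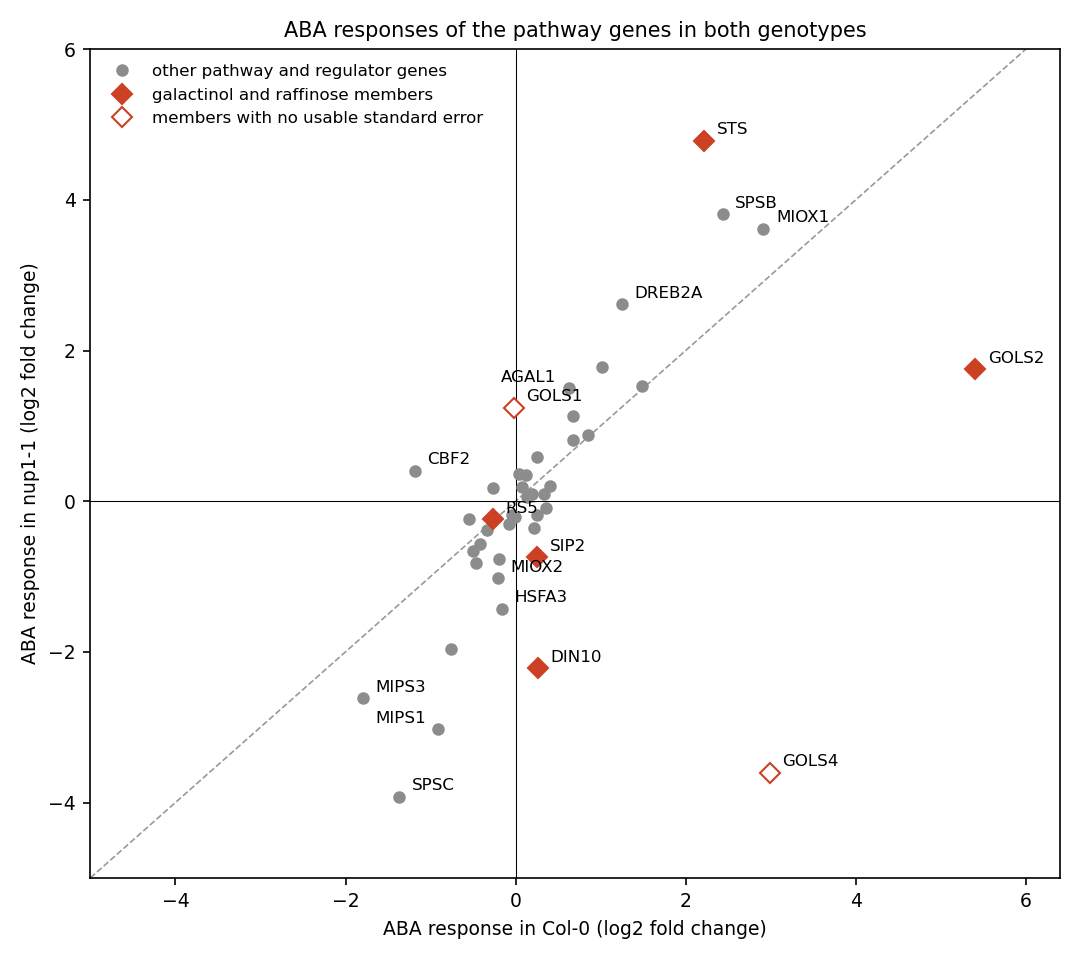
Log2 ABA response in nup1-1 (y axis) against that in Col-0 (x axis) for the members (diamonds, open where no standard error is usable) and for the other genes of the pathway and its regulators (grey circles), 1 point per gene. The dashed line marks equal responses. STS lies above it at 4.79 and 2.22, and GOLS2 at 1.75 and 5.41 and DIN10 at -2.21 and 0.27 lie below it.

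The makeup of each set of genes is given as shares within a group, since the levels of the genotypes come from tables scaled separately. The 10 genes GOLS1 to GOLS10 were summed by name, and whether each encodes a galactinol synthase was not tested. For this sum the authors' deposited ABA tables hold 31.4 FPKM with and 15.1 FPKM without ABA in nup1-1, and 26.6 and 9.98 FPKM in Col-0. GOLS2 made up 60.6% of the sum with ABA and 37.4% without in nup1-1, against 58.3% and 3.67% in Col-0. GOLS1 made up 24.9% with and 21.8% without ABA in nup1-1, against 21.5% and 58.4% in Col-0. GOLS1 was thus listed with the largest share in untreated Col-0 and GOLS2 in the other 3 groups. The GOLS1 level is imprecise and its locus overlaps ARF1A1C, as given above, so the shares rest on an uncertain value. Of GOLS5 to GOLS10, GOLS8 alone was tested. It was listed between 2.97 and 3.91 FPKM in the authors' deposited ABA tables and was not called in any comparison. GOLS8 made up 11.3% of the sum with and 20.4% without ABA in nup1-1, against 14.7% and 29.7% in Col-0. The shares of GOLS1 and GOLS2 thus depend on counting it. GOLS10 was listed at 0 in every table.

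Of the summed FPKM of RS5, STS, DIN10 and SIP2, DIN10 held 54.7% with and 79.9% without ABA in nup1-1, against 72.2% and 71.2% in Col-0. STS held 4.66% with and 0.0531% without ABA in nup1-1, against 1.44% and 0.368% in Col-0. STS was thus the smallest share in every group. These 4 coding sequences are 46.9% to 55.0% identical in pairs, with no identical run over 21 bases.

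**Figure D5:**
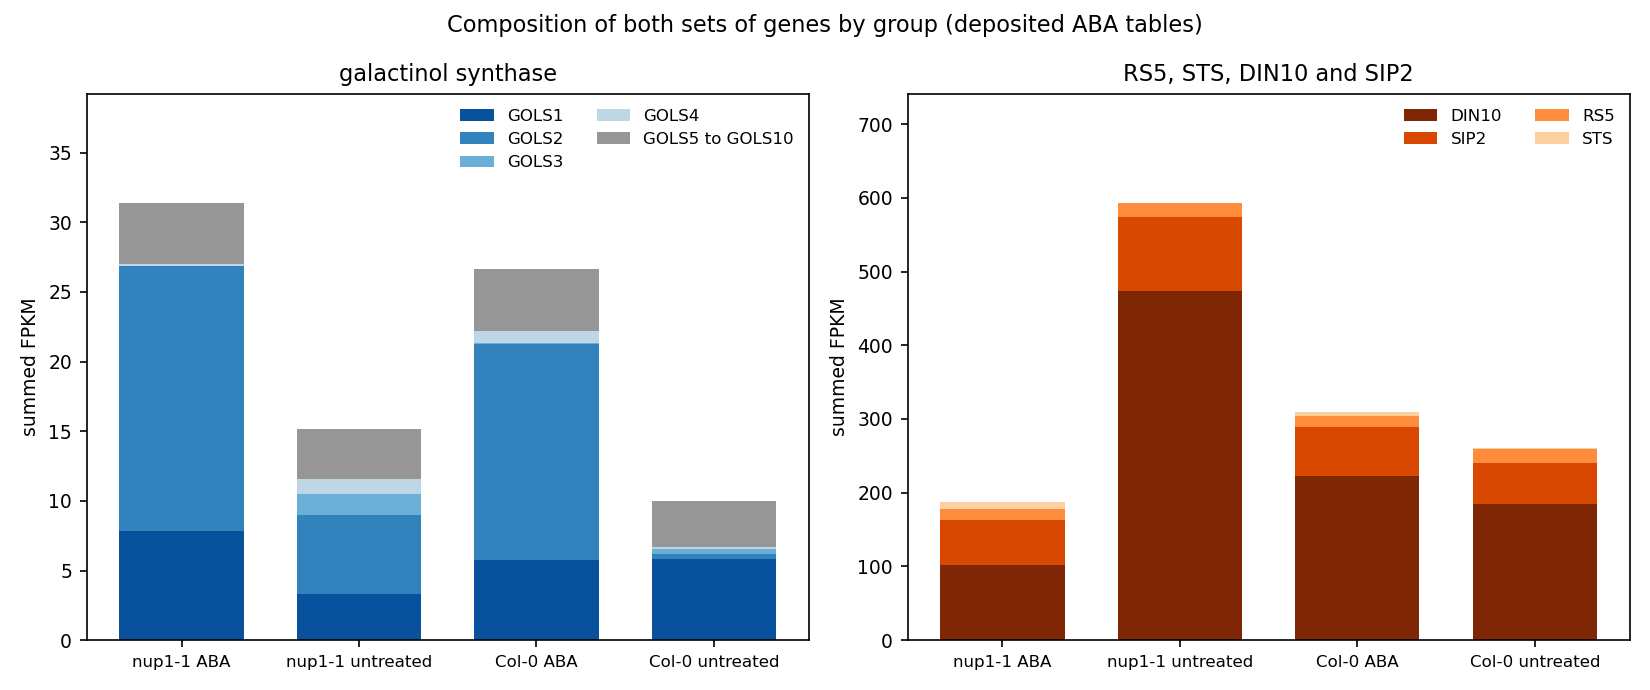
Summed FPKM of GOLS1 to GOLS10 (left) and of RS5, STS, DIN10 and SIP2 (right) in each group, stacked by gene, from the deposited ABA tables. The y axis starts at 0 and there is 1 value per gene and group. GOLS2 holds 3.67% of the left sum in untreated Col-0 and between 37.4% and 60.6% in the other groups. DIN10 is the largest block of every bar on the right.

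The genes that supply the substrates were counted by list. Over all tested genes, 21.2% rose and 25.3% fell on ABA in nup1-1, and 7.83% rose and 7.79% fell in Col-0; between genotypes 15.4% were higher and 23.3% lower on ABA, and 2.68% higher and 3.92% lower without it. With 10 or fewer genes a list, nothing particular to a list is read from its count beside these shares. Of 6 genes of myo-inositol supply, 4 fell and none rose on ABA in nup1-1, 2 fell and none rose in Col-0, and 4 were lower and none higher in nup1-1 on ABA; none was higher at an unadjusted p under 0.05 in these comparisons. None was called without ABA, against 2 lower at an unadjusted p under 0.05. MIPS1, for the inositol phosphate synthase of the first committed step, is listed in the authors' deposited tables at 10.1 FPKM with and 82.3 FPKM without ABA in nup1-1, and at 58.2 and 109 FPKM in Col-0. Its log2 ABA responses were -3.02 ± 0.17 and -0.91 ± 0.23, and they differed by -2.11 ± 0.29 (q = 2.4e-11). MIPS3, a second such gene, had log2 ABA responses of -2.61 ± 0.40 in nup1-1 and -1.79 ± 0.45 in Col-0, both called, and a difference between them of -0.82 ± 0.60 that was not called (q = 0.417). Of 6 genes of UDP-galactose supply, 1 rose and 2 fell on ABA in nup1-1 and 1 rose and none fell in Col-0 (2 lower by an unadjusted p alone). UGP2, for a UDP-glucose pyrophosphorylase, was lower in nup1-1 both on ABA, with a log2 difference of -1.04 ± 0.15, and without it, with one of -1.33 ± 0.23. Between genotypes 1 gene of this list was higher and 3 lower on ABA, and none higher (1 by the unadjusted p) and 1 lower without it.

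Sucrose is the acceptor in raffinose synthesis. Of 7 sucrose phosphate synthase and phosphatase genes, 3 rose and 2 fell on ABA in nup1-1, and 2 rose and 1 fell in Col-0, where 46.6% and 15.6% of all tested genes were called. The synthase genes went both ways. SPSB is listed in the authors' deposited tables at 20.6 FPKM with and 1.46 FPKM without ABA in nup1-1, against 7.05 and 1.30 FPKM in Col-0. SPSC is listed there at 1.65 FPKM with and 25.0 FPKM without ABA in nup1-1, against 20.6 and 53.2 FPKM in Col-0. The difference of the log2 ABA responses, nup1-1 minus Col-0, was 1.38 ± 0.32 for SPSB and -2.55 ± 0.30 for SPSC, both called. SPSA2 rose by 1.52 ± 0.16 in nup1-1 and 1.49 ± 0.22 in Col-0. SPP3A, for a sucrose phosphatase, was lower in nup1-1 on ABA, with a log2 difference of -1.05 ± 0.15. Between genotypes 1 gene of this list was higher and 2 lower on ABA, and none higher (also by the unadjusted p) and 1 lower without ABA.

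On the side of breakdown, 2 of 5 alpha-galactosidase and galactose use genes rose and none fell on ABA in nup1-1, and 1 rose and none fell in Col-0 (none lower at an unadjusted p under 0.05 in either). Of all tested genes 46.6% were called for ABA in nup1-1 and 15.6% in Col-0, so 2 of 5 is near the background. AGAL1, an alpha-galactosidase gene, rose 2.83-fold on ABA in nup1-1 and 1.54-fold in Col-0, and on the log2 scale these responses differed by 0.87 ± 0.27 (q = 0.0104). Of the myo-inositol oxygenase genes, which open the ring of the galactinol precursor, MIOX1 rose 12.3-fold on ABA in nup1-1 and 7.54-fold in Col-0. MIOX2 fell by 1.02 ± 0.16 on the log2 scale on ABA in nup1-1. MIOX2 was higher in nup1-1 than in Col-0 both on ABA, 1.56-fold, and without ABA, 2.78-fold. Of the 2 oxygenase genes tested it was the one called between genotypes, and none was lower (none by the unadjusted p). MIOX4 and MIOX5 were not tested. Between genotypes on ABA, 1 alpha-galactosidase or galactose use gene, AGAL1, was higher and none lower (none lower by the unadjusted p). Without ABA none was called (none by the unadjusted p).

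Among 10 heat shock and cold response factors known to act on galactinol synthase genes, 3 rose and 2 fell on ABA in nup1-1, and 2 rose and 1 fell in Col-0. The 5 of 10 called in nup1-1 are close to the 46.6% of all tested genes called there, and 15.6% were called in Col-0. DREB2A, a dehydration and heat factor, rose by 2.62 ± 0.17 in nup1-1 and 1.26 ± 0.23 in Col-0, and the difference of 1.36 ± 0.29 was called (q = 5.6e-05). HSFA1E rose by 1.78 ± 0.22 and 1.01 ± 0.27, and HSFA2 rose in nup1-1 by 1.13 ± 0.40. HSFA3, which lies downstream of DREB2A in the heat response, had a log2 ABA response of -1.42 ± 0.23 in nup1-1, which was called, and one of -0.16 ± 0.26 in Col-0, which was not. The cold factors CBF1 to CBF3 are close copies of each other, so reads they share could be split between them. CBF3, known to act on GOLS3, fell by 1.97 ± 0.40 on the log2 scale on ABA in nup1-1. CBF2 fell by 1.19 ± 0.27 on the log2 scale on ABA in Col-0. Without ABA it was lower in nup1-1, with a log2 difference of -1.87 ± 0.31. Between genotypes 2 factors were higher and 1 lower on ABA, and 1, CBF2, was lower without ABA. No factor was called higher in untreated nup1-1 (none at an unadjusted p under 0.05).

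For each member the genes with the most similar pattern were found by the Euclidean distance over the 4 log2 fold changes, among 19199 genes tested in all tables (19200 for GOLS3, which itself went untested in 2 of them). Nearest to GOLS2 was LTP4, a lipid transfer protein gene, at a distance of 0.64, and the next, AT5G44440, stood at 1.61. The ABA responses of LTP4 were 1.78 in nup1-1 and 5.25 in Col-0, and its genotype differences were -0.26 on ABA and 3.22 without ABA. Nearest to DIN10 were SZF1, at 0.15, AT1G78830, at 0.26, and TPS11, at 0.28. STS had AT1G24580 nearest, at 0.59, and SIP2 had ATB' ALPHA, at 0.07. The nearest genes of RS5 and GOLS1 were EMB3006, at 0.03, and AT1G62510, at 0.17. For GOLS3 and GOLS4, whose own values are imprecise, the nearest were AT1G15125, at 1.04, and AT4G26290, at 1.41.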

How the data were processed

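Per the submitters' processing notes, reads were handled with FastQC, Trimmomatic and TopHat on TAIR10; no source used here names versions or the program behind the tables. The authors deposited 4 gene tables with FPKM per group, a test statistic (a score), a p-value and a q-value. They hold no values per library, so depth and spread per sample are unknown and group values carry no SD or n. The deposited q-values equal the deposited p-values adjusted by the Benjamini-Hochberg method over tested genes, and a gene was called at q under 0.05. Log2 fold changes were recomputed from FPKM without a pseudocount. The statistic times a factor per table, 1.738 to 1.743, matches the normal deviate of the p-value. The fold change divided by it is the standard error. This error was omitted where that from the p-value differed over 1.5 times. Genes at the smallest deposited p, 5e-05, skipped this check, among them GOLS2 and STS for ABA in both genotypes. Their errors from the p-value are larger, 1.33 beside 0.41 for GOLS2 in Col-0 and 1.18 beside 0.33 for STS in nup1-1. The Wald test of the difference of both responses (SciPy 1.17.1) was tried on simulated data. These were drawn with the same reconstructed errors, so the trial cannot show whether those errors are right. Promoter windows and coding sequences were read from RefSeq's TAIR10.1 genome at its own gene models. All 26159 shared protein-coding loci overlapped the tables' positions, but only 40.5% of them shared a start or an end. The minus-strand gene STS starts at 857401 in RefSeq and at 857008 in the tables. GOLS3 starts at 3019639 in RefSeq and at 3019819 in the tables. The motif distances thus hold for the RefSeq starts alone. Coding sequences were aligned with Biopython 1.88, and the longest model was used. Symbols are RefSeq's or common names. Members and lists were chosen with earlier results of these data known. Named were all 8 members, the list genes called with a log2 change of 1 or more in size, and the nearest genes. UGE5 and SPP2 lie in rows that join neighbouring genes and were not used. A further gene is not reported here.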

Additional observations from a re-analysis of the deposited data

Results flagged for a closer look

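By the Wald test (nup1-1 minus Col-0, log2), the ABA response differed between genotypes for 5 of 7 members tested. It also differed for 8 other genes of the lists. Over all 19487 genes tested this way, 16.3% were called. The other genes tested were 6 of myo-inositol supply, 6 of UDP-galactose supply and 7 of sucrose synthesis. A further 5 of alpha-galactosidase and galactose use, 2 of myo-inositol oxidation, 10 factors and GOLS8 were tested too. Nothing about the pathway is read from these counts. The members called were GOLS2 (-3.65), DIN10 (-2.48), SIP2 (-0.999), STS (2.57) and GOLS4 (-6.59), the last with levels near 0. With errors from the deposited p-values the calls of GOLS2, STS and GOLS4 are lost, and those of DIN10 and SIP2 stay. Of the substrate and sucrose genes, the difference was below 0 for MIPS1 (-2.11) and SPSC (-2.55) and above 0 for SPSB (1.38). Of the genes of breakdown and oxidation, it was above 0 for AGAL1 (0.87) and below 0 for MIOX2 (-0.82). Of the factors, it was above 0 for DREB2A (1.36) and CBF2 (1.59) and below 0 for HSFA3 (-1.27).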

How the results depend on the processing

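One member changed sign, the ABA response of GOLS1 in Col-0, which was 0.11 when centred on the reference genes and not called. The pseudocounts leave the deposited q as it is and a stricter threshold leaves the fold as it is, so these settings say little about stability. For genotype on ABA the count of members called was 2, and 1 when a log2 fold change of at least 1 was also asked, which leaves out STS at 0.76. For genotype without ABA it was 4, and 2 at q under 0.01, where GOLS3 and DIN10 were lost, 3 when adjusted over genes at 1 FPKM or more, where STS was not tested, and 5 when centred on the reference genes, where SIP2 was gained. Centred in this way it was 3 on ABA, again with SIP2. Centred on the median of all genes SIP2 was not gained, and the counts stayed at 4 without ABA and 2 on ABA. For the difference of the ABA responses the count was 5. It was 2 (DIN10 and SIP2) with errors from the deposited p-values, which can be too large for genes at the smallest p. From the genotype tables it was 4 of 6 members, since GOLS3 and GOLS4 did not meet the conditions for the test there. No paired analysis was possible because the tables hold 1 value per group and the columns carry no replicate number; for the same reason no sample could be left out. Members below 1 FPKM, GOLS3 and GOLS4 above all, are limited by their low level.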
